A study of Homo sapiens with 24 samples.

Results

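CXCL1, CXCL2, CXCL3, CXCL5, CXCL6 and CXCL8 are the chemokines by which tissues call in neutrophils, and they were followed as a family in Huh7.5.1 hepatoma cells. The 6 genes were picked by name, each was read from 1 probe set, and together they make up 6 of the 18274 genes tested. The 24 arrays of the time course hold silymarin and DMSO solvent at 4 h (4 and 4 arrays), at 8 h (3 and 5) and at 24 h (3 and 5). Sample titles mark all groups as without virus. The labels give no silymarin dose and do not say whether arrays of a group came from separate cultures, so p-values measure only the spread between these arrays.

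Silymarin is an extract of milk thistle seed. Huh7.5.1 is a human liver cancer line derived from Huh7 through a subclone known for a defective RIG-I RNA sensor, and it is used to grow hepatitis C virus, so it is a single established line rather than normal hepatocytes. Levels are log2 values of whole-culture RNA, in which fewer cells of a type and less RNA per cell cannot be told apart.

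Chemokines of this family carry a glutamate-leucine-arginine motif before their paired cysteines and act on the neutrophil receptor CXCR2, which CXCL6 and CXCL8 share with CXCR1. Liver parenchymal cells are known to make them in response to IL-1, TNF and microbial signals, mostly through the transcription factor NF-kB together with AP-1 and C/EBP factors. Their mRNAs are short-lived because AU-rich elements mark them for decay.

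Before any comparison, 3 arrays stood apart in CXCL5 and CXCL6, and all 3 carry the DMSO label. CXCL5 lay between 8.31 and 8.88 in DMSO replicate 1 at 4 h and DMSO replicates 1 and 4 at 8 h, while every other array had at least 9.82. CXCL6 lay between 6.78 and 7.36 in the same arrays and at 8.07 or more elsewhere. In CXCL1, CXCL2, CXCL3 and CXCL8 no clear gap set the same 3 arrays off. In CXCL1, DMSO replicate 5 at 8 h (9.26) was even lower than DMSO replicate 1 at 4 h (9.40). The differences that rest on the 3 arrays, the spread within groups and the correlations are also given without them. That choice was made after seeing their values. The stress gene DDIT4 also set arrays of 1 label apart, with 10 arrays at 9.67 or more and 14 at 8.35 or less. Arrays with DDIT4 above 9 were 1 of 4 in silymarin and 2 of 4 in DMSO at 4 h, 2 of 3 and 3 of 5 at 8 h, and 1 of 3 and 1 of 5 at 24 h. The 3 arrays low in CXCL5 were among those 10, and the part of either feature in the differences below was not tested.

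Liver markers were high, as the label has it. All 14 measured hepatocyte markers had a mean above the median gene mean of 7.90, led by albumin (ALB, 13.34), and their average stayed between 12.11 and 12.29 on every array. Of 13 measured neutrophil and myeloid markers, 3 were above that median and 8 under the 25th percentile of gene means (6.27). LYZ was the highest of them at 12.29, and the average of the list was 6.39 to 6.60 over all arrays. The highest lymphocyte marker was NKG7 (7.50), the highest endothelial marker PECAM1 (6.89) and the highest fibroblast marker COL1A1 (7.77), all under the median gene. Of the bile duct list, 2 of 5 markers were above it, with SOX9 at 10.40.

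The promoters are shown first because they carry what the 6 genes have in common in sequence. All 6 matched an entry among the RefSeq promoters of GRCh38.p14, which run from 250 bases before to 50 bases after a gene's start. Each member held the 9 letters GGAATTTCC at positions between -91 and -69 from the start, on the gene's own strand, and the capitals below mark them. The windows of the first 5 genes begin 20 bases before these letters. In CXCL8 a longer window also shows, in capitals, an AP-1 motif before them and a TATA box after them.
CXCL1 (chr4:73869295-73869374, plus strand): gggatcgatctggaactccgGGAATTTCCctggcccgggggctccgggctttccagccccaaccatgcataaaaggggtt
CXCL2 (chr4:74099213-74099292, minus strand): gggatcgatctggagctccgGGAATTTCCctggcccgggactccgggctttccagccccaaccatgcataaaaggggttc
CXCL3 (chr4:74038708-74038787, minus strand): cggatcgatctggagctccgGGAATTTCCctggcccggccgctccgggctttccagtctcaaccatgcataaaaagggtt
CXCL5 (chr4:73998708-73998787, minus strand): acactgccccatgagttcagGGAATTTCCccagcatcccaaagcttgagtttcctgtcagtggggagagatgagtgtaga
CXCL6 (chr4:73836569-73836648, plus strand): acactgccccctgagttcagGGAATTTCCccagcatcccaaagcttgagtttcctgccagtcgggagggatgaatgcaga
CXCL8 (chr4:73740419-73740548, plus strand): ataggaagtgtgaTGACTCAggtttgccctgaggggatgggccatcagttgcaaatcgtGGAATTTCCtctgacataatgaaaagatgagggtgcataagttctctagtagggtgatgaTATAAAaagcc

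The 9 letters were chosen after reading the 6 promoters, so their presence in all 6 is a description. Over all 35116 promoters of the same length, 162 held them on either strand (0.461%). The NF-kB consensus, which overlaps the same letters, matched 5 of the 6 promoters, all but that of CXCL8, and 11.3% of all promoters. Searched on both strands as exact strings, the AP-1 motif TGANTCA and the TATA box TATAAA were found in CXCL8 alone of the members. They were found in 7.71% and 11.5% of all promoters. Near matches, such as the letters cataaaa in the windows of CXCL1, CXCL2 and CXCL3, were not counted. The GC box GGGCGG was found in CXCL1, CXCL3 and CXCL6, against 45.0%. A match is a string of letters and does not show binding. Over the whole 300 bases the promoters formed pairs. CXCL5 and CXCL6 were 83.1% identical and CXCL1 and CXCL3 82.5%, CXCL2 shared 69.1% with CXCL1 and 73.8% with CXCL3, and CXCL8 shared 40.1% to 41.7% with the others.

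All 6 genes lie in 1 cluster on chromosome 4. In the order of the annotation CXCL8 is followed by CXCL6, PF4V1, CXCL1, PF4, PPBP, CXCL5, CXCL3 and CXCL2, with the growth factor genes EPGN and EREG beyond. Levels of different probe sets are not on 1 scale, so each gene is compared with itself across arrays. The transcripts of CXCL1, CXCL2 and CXCL3 are close relatives, and whether their probes tell them apart was not tested.

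The comparison of silymarin with DMSO at each time asks whether expression differed between the labels, and at which times. At 4 h all 6 genes had the higher mean in silymarin, by 0.14 to 0.81 on the log2 scale, which is 1.10-fold for CXCL3 and 1.76-fold for CXCL8. At 8 h all 6 again had the higher mean in silymarin, by 0.19 to 0.67, but the SD of the DMSO arrays was wider than the difference for every member but CXCL3. At 24 h the differences lay between -0.09 and 0.14, with 4 of 6 above 0. No member passed limma's test at any time after adjustment over all genes, and no other gene did.

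**Figure D1:**
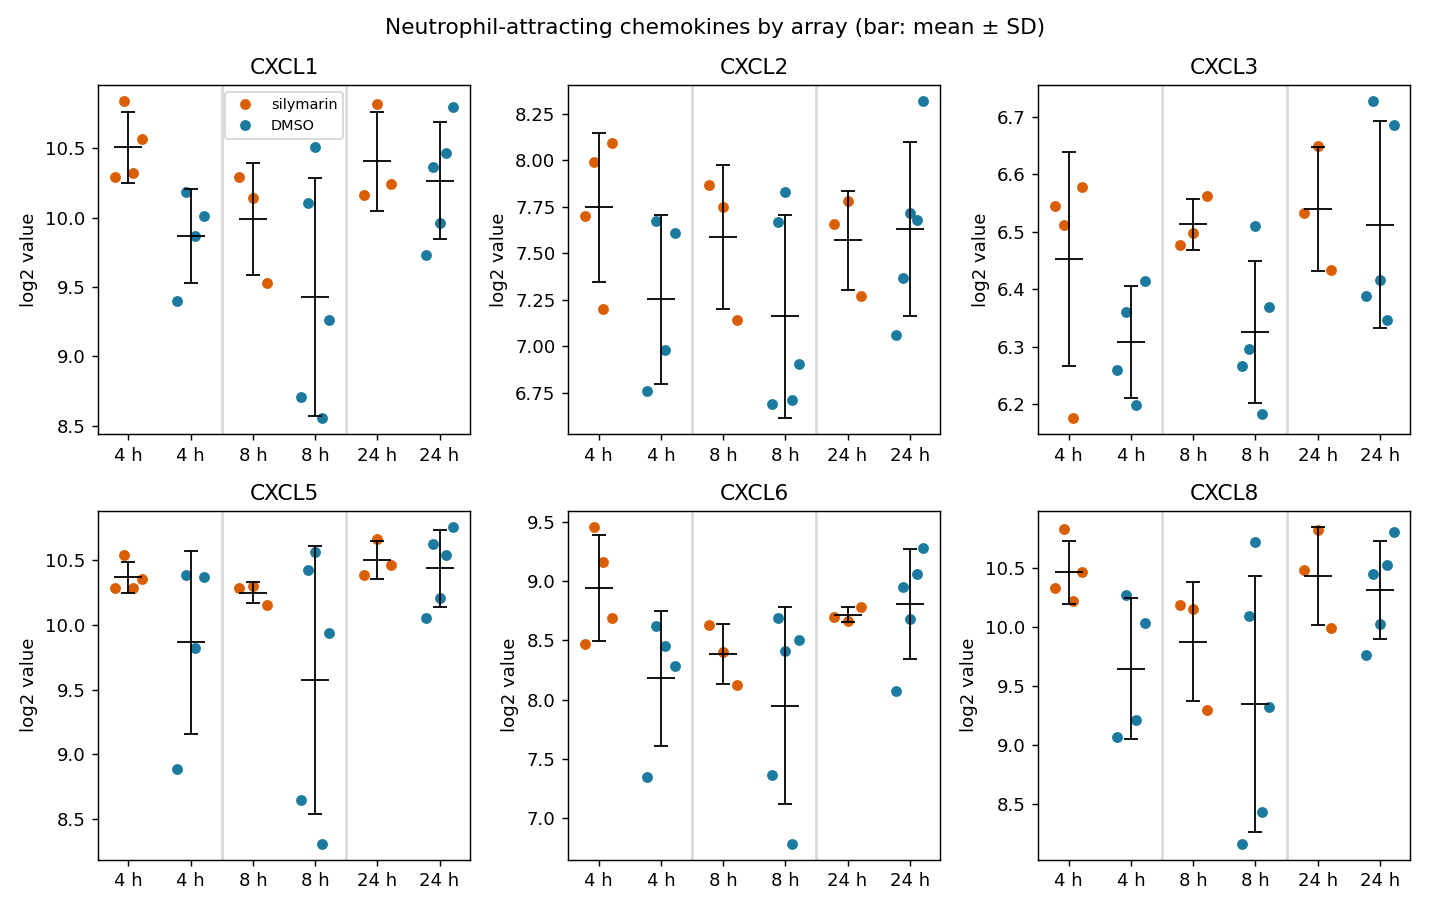
Log2 value of each chemokine (vertical axis, own scale per panel) on every array, with silymarin in orange left of DMSO in blue at 4 h, 8 h and 24 h; bars give the mean and SD of 3 to 5 arrays. CXCL8 spans 8.16 to 10.72 in DMSO at 8 h, the group with the largest SD for every gene but CXCL3, and in the CXCL1 panel the 4 silymarin arrays at 4 h lie above all 4 DMSO arrays.

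CXCL1 (GRO-alpha), a founding member of the GRO group of CXCR2 ligands, was 10.30, 10.84, 10.32 and 10.57 in silymarin at 4 h, against 9.40, 10.19, 9.87 and 10.01 in DMSO. Every silymarin array was above every DMSO array, which held for no other member at any time. The difference was 0.64 (SE 0.32, 95% interval -0.03 to 1.31, limma unadjusted p = 0.0601). It was 0.49 without DMSO replicate 1, the array of that time that stood apart in CXCL5 and CXCL6. At 8 h CXCL1 was 10.29, 10.15 and 9.53 in silymarin, against 8.71, 10.11, 10.51, 8.56 and 9.26 in DMSO. Here the DMSO arrays lay on both sides of the silymarin arrays, and the difference of 0.56 (SE 0.33) came to 0.34 without DMSO replicate 4 and to 0.03 without the 3 arrays that stood apart. By 24 h the values were 10.16, 10.82 and 10.24 in silymarin, against 9.73, 10.37, 9.97, 10.46 and 10.80 in DMSO. The groups overlapped, with 2 of the 5 DMSO arrays below every silymarin array and a difference of 0.14 (SE 0.33).

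CXCL2 (GRO-beta) and CXCL3 (GRO-gamma) complete the GRO group. CXCL2 was 7.70, 7.99, 7.20 and 8.09 in silymarin at 4 h, against 6.76, 7.67, 6.98 and 7.61 in DMSO. Silymarin replicate 3 fell inside the DMSO range and replicates 1, 2 and 4 lay above it, a difference of 0.49 (SE 0.28), or 0.33 without DMSO replicate 1. At 8 h CXCL2 was 7.87, 7.75 and 7.14 in silymarin, against 6.69, 7.67, 7.83, 6.71 and 6.90 in DMSO. The DMSO arrays fell into a higher pair and a lower set of 3, and the difference of 0.43 (SE 0.29) was 0.65 without silymarin replicate 3 and 0.12 without the 3 arrays apart. At 24 h it was 7.66, 7.78 and 7.27 in silymarin, against 7.06, 7.37, 7.72, 7.68 and 8.32 in DMSO, with a difference of -0.06 (SE 0.29) and DMSO arrays on both sides.

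CXCL3 had smaller differences than the rest. It was 6.55, 6.51, 6.18 and 6.58 in silymarin at 4 h, against 6.26, 6.36, 6.20 and 6.42 in DMSO. Silymarin replicate 3 was the lowest of these 8 arrays and the other 3 were the highest. The difference was 0.14 (SE 0.10), or 0.24 without that replicate. At 8 h CXCL3 was 6.48, 6.50 and 6.56 in silymarin, against 6.27, 6.30, 6.51, 6.18 and 6.37 in DMSO. All but 1 DMSO array lay below the silymarin arrays, a difference of 0.19 (SE 0.10, limma unadjusted p = 0.0688), or 0.12 without the 3 arrays apart. At 24 h the values were 6.53, 6.65 and 6.43 in silymarin, against 6.39, 6.73, 6.42, 6.35 and 6.68 in DMSO, and the groups were interleaved (difference 0.03, SE 0.10). With a mean of 6.43, CXCL3 was read near the 25th percentile of gene means, where array signals are dim.

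CXCL5 (ENA-78), a CXCR2 ligand made mainly by epithelial cells, was tight in silymarin at 4 h with 10.28, 10.54, 10.28 and 10.36, against 8.88, 10.39, 9.82 and 10.37 in DMSO. Most of the difference of 0.50 (SE 0.37) came from DMSO replicate 1, without which it was 0.17. At 8 h CXCL5 was 10.28, 10.30 and 10.16 in silymarin, against 8.65, 10.43, 10.56, 8.31 and 9.94 in DMSO. Of the DMSO arrays, 2 lay above all silymarin arrays and 3 below them. The difference of 0.67 (SE 0.38) placed 10th by size among all genes and 1471st by limma unadjusted p. It was 0.44 without DMSO replicate 1, 0.35 without DMSO replicate 4 and -0.06 without the 3 arrays apart. By 24 h CXCL5 was 10.38, 10.66 and 10.46 in silymarin, against 10.05, 10.62, 10.20, 10.54 and 10.76 in DMSO, and the DMSO arrays enclosed the silymarin arrays (difference 0.06, SE 0.38).

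CXCL6 (GCP-2), the closest relative of CXCL5, was 8.47, 9.46, 9.16 and 8.69 in silymarin at 4 h, against 7.35, 8.63, 8.45 and 8.29 in DMSO. Silymarin replicate 1 alone fell inside the DMSO range. The difference of 0.77 (SE 0.34, 95% interval 0.06 to 1.48) had limma's unadjusted p = 0.0356 and adjusted p = 0.99993, and it was 0.49 without DMSO replicate 1. At 8 h CXCL6 was 8.63, 8.40 and 8.12 in silymarin, against 7.36, 8.69, 8.41, 6.78 and 8.50 in DMSO. Again 2 DMSO arrays were lower than all others, and the difference of 0.44 (SE 0.35) was 0.29 without DMSO replicate 1, 0.14 without DMSO replicate 4 and -0.15 without the 3 arrays apart. At 24 h the silymarin arrays were close together at 8.70, 8.67 and 8.78, against 8.07, 8.95, 8.68, 9.06 and 9.28 in DMSO, of which 3 were higher (difference -0.09, SE 0.35).

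CXCL8 (interleukin-8), the archetypal neutrophil chemokine, was 10.33, 10.83, 10.22 and 10.46 in silymarin at 4 h, against 9.07, 10.27, 9.21 and 10.03 in DMSO. The ranges touched only where silymarin replicate 3 met DMSO replicate 2. The difference of 0.81 (SE 0.41, 95% interval -0.02 to 1.65, limma unadjusted p = 0.0564) was the 5th highest of all genes by size. By size CXCL6 placed 8th and CXCL1 21st. By limma unadjusted p, CXCL8, CXCL6 and CXCL1 placed 550th, 287th and 605th. For DMSO at 24 h minus DMSO at 4 h, without silymarin, they placed 7th, 8th and 36th by size. The silymarin difference of CXCL8 at 4 h was 0.62 without DMSO replicate 1. At 8 h CXCL8 was 10.18, 10.15 and 9.29 in silymarin, against 8.16, 10.09, 10.72, 8.43 and 9.32 in DMSO. DMSO held both the highest and the lowest arrays of that time. The difference of 0.53 (SE 0.42) was 0.24 without DMSO replicate 1, 0.30 without DMSO replicate 4 and -0.17 without the 3 arrays apart. It was 0.87 without DMSO replicate 3 and 0.82 without silymarin replicate 3. At 24 h CXCL8 was 10.48, 10.82 and 9.99 in silymarin, against 9.76, 10.44, 10.02, 10.52 and 10.80 in DMSO, and the ranges overlapped (difference 0.12, SE 0.42).

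Set against all genes, 0 of 6 members passed an adjusted p of 0.05 at 4 h, 8 h or 24 h, and 0% of all genes did at each time. The limma adjusted p of every member was 0.99993 at 4 h, 0.991 at 8 h and 0.99971 at 24 h. Without adjustment 453, 719 and 553 genes had p under 0.05 at the 3 times. With an unadjusted p under 0.05 and a higher mean in silymarin there was 1 member at 4 h (CXCL6), beside 1.05% of all genes, and none at 8 h or 24 h, beside 1.56% and 2.11%. Every silymarin array exceeded every DMSO array for 1 member at 4 h (CXCL1), beside 0.629% of all genes, and for none at 8 h or 24 h, beside 0.947% and 1.18%. The median difference of the 6 was 0.57 at 4 h, 0.48 at 8 h and 0.05 at 24 h, where the medians of all genes were -0.01, -0.02 and 0.01. The share of all genes above 0 was 47.5%, 42.0% and 56.0%.

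**Figure D2:**
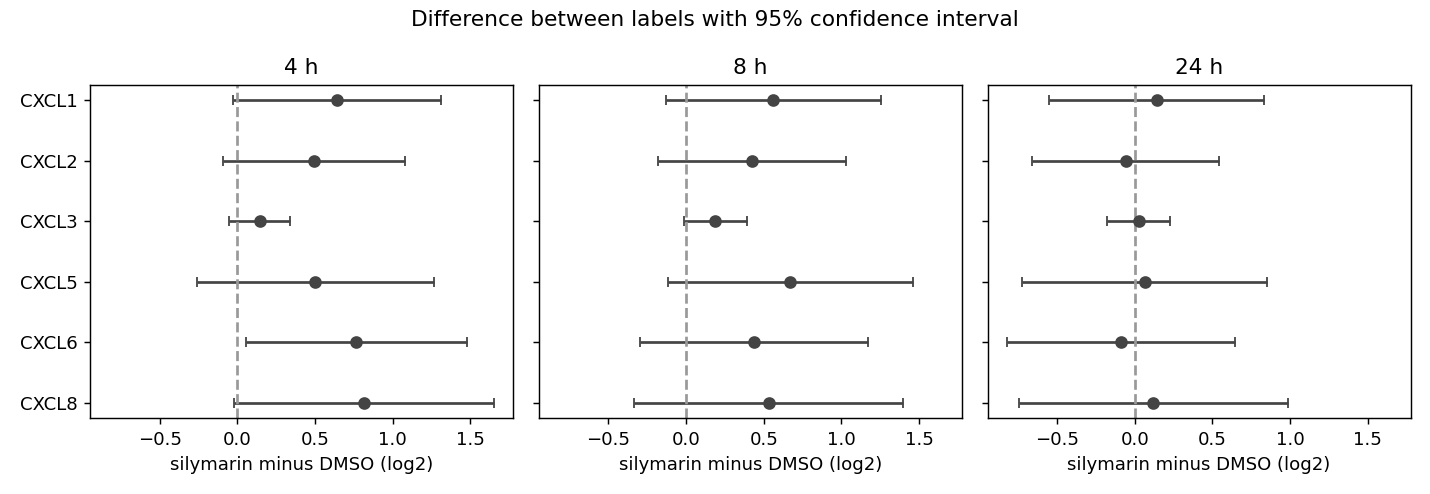
Silymarin minus DMSO on the log2 scale (horizontal axis) for each chemokine at 4 h, 8 h and 24 h, with the 95% confidence interval of the limma fit as the bar. At 4 h the interval of CXCL6 (0.06 to 1.48) is the only one that excludes 0 before adjustment over genes, and at 24 h all estimates lie between -0.09 and 0.14.

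Whether the silymarin difference itself changed with time was tested as an interaction, and 0 genes passed. All 6 members had a lower difference at 24 h than at 4 h, and the change was -0.86 (SE 0.49) for CXCL6, -0.70 (SE 0.58) for CXCL8, -0.55 (SE 0.41) for CXCL2, -0.50 (SE 0.47) for CXCL1, -0.44 (SE 0.53) for CXCL5 and -0.12 (SE 0.14) for CXCL3. The adjusted p of each was 0.99994 (limma), and 551 of all genes had an unadjusted p under 0.05. Without DMSO replicate 1 at 4 h the change of CXCL5 was -0.11 and that of CXCL6 -0.58, and that of CXCL3 lay between -0.21 and -0.06 with 1 array left out. Between 4 h and 8 h the median change of the members was -0.07, with 2 of 6 above 0.

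In the solvent itself all 6 genes had a higher mean at 24 h than at 4 h, by 0.67 (SE 0.38) for CXCL8, 0.63 (SE 0.33) for CXCL6, 0.57 (SE 0.35) for CXCL5, 0.40 (SE 0.31) for CXCL1, 0.38 (SE 0.27) for CXCL2 and 0.20 (SE 0.09) for CXCL3. These share the DMSO arrays at 4 h and 24 h with the comparisons above. CXCL3 alone had an unadjusted p under 0.05 (0.0338), the adjusted p of all 6 was 0.99992 (limma), and 0 of all genes passed while 310 had an unadjusted p under 0.05. Without DMSO replicate 1 at 4 h CXCL5 differed by 0.24, CXCL6 by 0.35, CXCL1 by 0.24 and CXCL2 by 0.21. Without DMSO replicate 5 at 24 h CXCL2 differed by 0.20 and CXCL1 by 0.27. In silymarin 2 members had a higher mean at 24 h than at 4 h, with a median change of -0.06, and 1 had a higher mean at 8 h than at 4 h, with a median of -0.34. Neither comparison called a gene, with 1207 and 2175 at an unadjusted p under 0.05.

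Ordered by level, CXCL1, CXCL2, CXCL6 and CXCL8 had their highest group mean in silymarin at 4 h and CXCL3 and CXCL5 in silymarin at 24 h. DMSO at 8 h was the lowest group for all but CXCL3, whose lowest was DMSO at 4 h. CXCL8 ran from 10.46 ± 0.27 in silymarin at 4 h through 10.43 ± 0.42 in silymarin at 24 h, 10.31 ± 0.41 in DMSO at 24 h, 9.87 ± 0.51 in silymarin at 8 h and 9.64 ± 0.59 in DMSO at 4 h to 9.34 ± 1.08 in DMSO at 8 h (SD, n = 4, 3, 5, 3, 4 and 5). No step between neighbours in this order exceeded the SD within groups for any member, and the arrays of neighbouring groups overlapped, except that CXCL6 in silymarin at 24 h lay above silymarin at 8 h without overlap. A limma F-test over the 6 groups gave unadjusted p = 0.0199 for CXCL1, 0.0380 for CXCL6, 0.0411 for CXCL8, 0.0810 for CXCL3, 0.0935 for CXCL5 and 0.241 for CXCL2. Adjusted p-values were 0.674 to 0.732, with 0 members and 0% of all genes under 0.05, and 1316 genes had an unadjusted p under 0.05. Over the 21 arrays without the 3 that stood apart, the members' unadjusted p lay between 0.139 and 0.868 and their adjusted p between 0.932 and 0.993.

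What set 5 of the 6 genes apart from most of the array was how far arrays of 1 group differed. The SD within groups was 0.65 for CXCL8, 0.59 for CXCL5, 0.55 for CXCL6, 0.51 for CXCL1 and 0.45 for CXCL2, where the median gene had 0.12. They ranked 23rd, 36th, 53rd, 65th and 116th of 18274 genes. CXCL3 had 0.14, a value above that of 65.2% of genes. A wide spread was not particular to the family. The SE of the 4 h difference was 0.28 (CXCL2) to 0.41 (CXCL8) for these 5 genes. It was 0.68 for CXCL10, 0.34 for CCL20, 0.33 for TNFAIP3 and 0.77 for DDIT4. Without the 3 arrays that stood apart the SDs were 0.47 for CXCL8, 0.24 for CXCL5, 0.34 for CXCL6, 0.40 for CXCL1 and 0.41 for CXCL2, with ranks 72, 983, 286, 163 and 138, and 0.14 for CXCL3, where the median gene had 0.12. The 6 groups held between 24.4% (CXCL2) and 42.6% (CXCL1) of a member's variance over arrays, against a median of 23.2% over all genes.

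**Figure D3:**
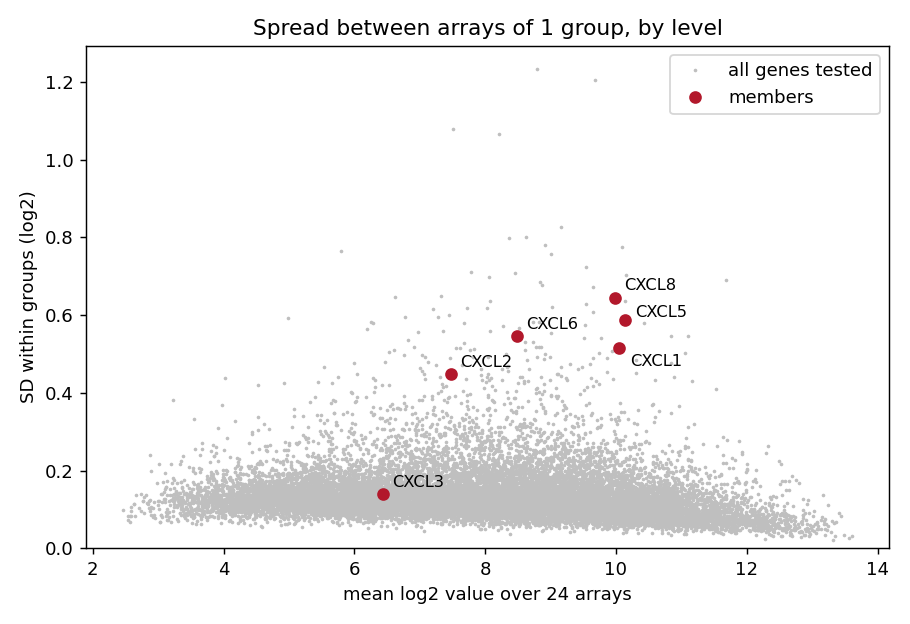
Standard deviation within groups (vertical axis, log2) against the mean log2 value over 24 arrays (horizontal axis) for all 18274 genes in grey and the 6 chemokines in red. CXCL8 (0.65), CXCL5 (0.59), CXCL6 (0.55), CXCL1 (0.51) and CXCL2 (0.45) lie far above the bulk of genes, and CXCL3 (0.14) lies within it.

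The genes varied together from array to array. CXCL1 and CXCL8 had Pearson r = 0.96 and Spearman rho = 0.94 over the 24 arrays (permutation p = 1e-05 for each, the smallest that 100000 permutations can give), and r = 0.93 without the 2 arrays farthest from the median of CXCL1. Each was the other's nearest gene among 18273. Over the 21 arrays without the 3 low in CXCL5, this pair had r = 0.92. Those 3 arrays were not a set apart in CXCL1 and CXCL8. DMSO replicate 1 at 4 h had 9.40 and 9.07, beside 9.26 and 9.32 in DMSO replicate 5 at 8 h. The 10 pairs without CXCL3 had r between 0.71 and 0.96 over 24 arrays and between 0.44 and 0.92 over 21. The 5 pairs with CXCL3 had r between 0.46 and 0.65, and between 0.10 and 0.59 over 21 arrays.

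Of the 15 pairs, 15 passed a Benjamini-Hochberg adjusted p of 0.05 by Pearson and 14 by Spearman, both two-sided permutation tests, and the exception was CXCL3 with CXCL6 (rho = 0.34, adjusted p = 0.105). Pairs of other genes were not tested this way, so no share over all genes stands beside these counts. By r among 18273 genes, members other than CXCL3 ranked between 1st and 262nd for each other. CXCL3 ranked between 258th (for CXCL2) and 1902nd (for CXCL6), so many genes outside the family were closer. Over 21 arrays 13 pairs passed, and CXCL3 with CXCL6 (r = 0.10, adjusted p = 0.658) and CXCL1 with CXCL3 (r = 0.43, adjusted p = 0.0582) did not. Within 4 h, 8 h and 24 h separately, the 10 pairs without CXCL3 had r of 0.60 to 0.94, 0.77 to 0.98 and 0.63 to 0.96. The 5 pairs with CXCL3 had r of 0.23 to 0.87, 0.62 to 0.78 and 0.42 to 0.71. With group means subtracted, 14 of 15 pairs passed, from CXCL3 with CXCL5 (r = 0.49) up to CXCL1 with CXCL8 (r = 0.95), and CXCL3 with CXCL6 did not (r = 0.27, adjusted p = 0.201). CXCL5 and CXCL6, the pair most alike in promoter sequence, had r = 0.89, or 0.58 over 21 arrays. CXCL1 and CXCL3, almost as alike in promoter sequence, had r = 0.61, or 0.43 over 21 arrays, with CXCL3 read at dim levels. The pair with the highest r, CXCL1 and CXCL8 (0.96, or 0.92 over 21 arrays), was only 40.9% identical in promoter sequence.

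**Figure D4:**
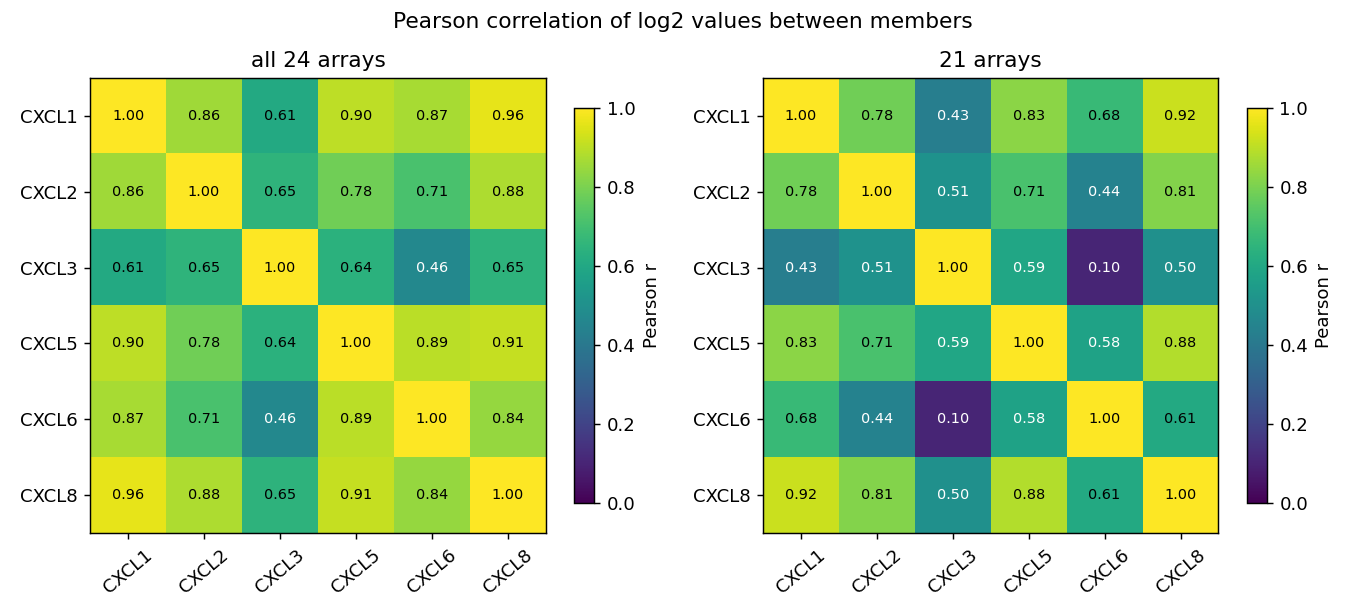
Pearson r between the log2 values of each pair of chemokines over all 24 arrays (left) and over the 21 arrays left without the 3 lowest in CXCL5 and CXCL6 (right), on a colour scale from 0 to 1. CXCL1 with CXCL8 has the highest value in both (0.96 and 0.92) and CXCL3 with CXCL6 the lowest (0.46 and 0.10).

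**Figure D5:**
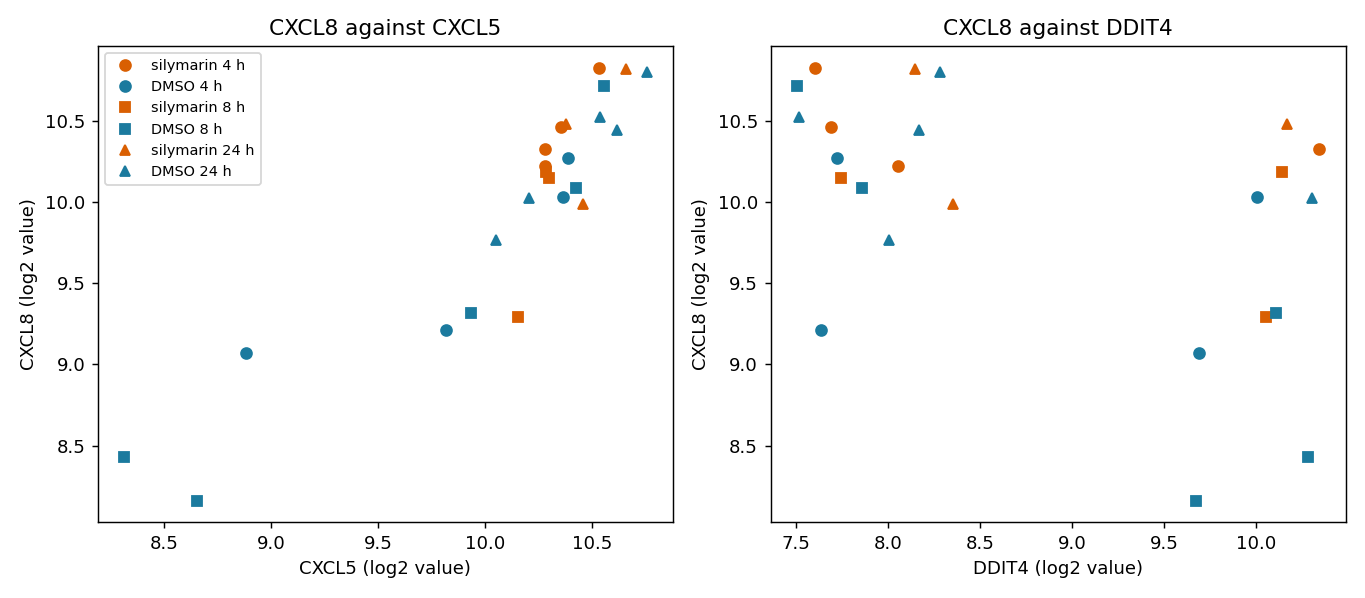
CXCL8 (vertical axis, log2) against CXCL5 (left) and against the stress gene DDIT4 (right) on each of the 24 arrays, with silymarin in orange, DMSO in blue and the time given by the marker. The 3 DMSO arrays with CXCL5 from 8.31 to 8.88 lie at the lower left of the first panel, and DDIT4 splits the arrays into 14 at 8.35 or less and 10 at 9.67 or more in the second.

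Outside the family, the genes whose array pattern was most like that of the members included NF-kB feedback genes and other cytokines. TNFAIP3, which encodes the NF-kB inhibitor A20, was nearest to CXCL1 (r = 0.95), CXCL2 (0.92) and CXCL8 (0.95), or 0.88, 0.89 and 0.87 over 21 arrays. CXCL1 was next most like CXCL10, a CXCR3 ligand that draws T cells (0.95), and the membrane chemokine CX3CL1 (0.93), or 0.87 and 0.85 over 21 arrays. CXCL8 was followed by the macrophage growth factor CSF1 and by CX3CL1 (0.94 each), or 0.88 and 0.85. CXCL5 was nearest to CSF1 and the ubiquitin-like modifier UBD (0.96 each) and the NF-kB inhibitor NFKBIA (0.93), and CXCL6 to UBD (0.91), the adhesion protein gene VCL (0.89) and CSF1 (0.88). Over 21 arrays r with CXCL5 was 0.83 for CSF1, 0.66 for UBD and 0.72 for NFKBIA, and r with CXCL6 was 0.70 for UBD, 0.63 for VCL and 0.59 for CSF1. CXCL2 was followed by SERPIND1, which encodes heparin cofactor II (0.88), and UFC1, an enzyme of UFM1 conjugation (0.87), or 0.80 and 0.79 over 21 arrays. CXCL3 was most like the RNase gene ZC3H12A (0.85), the sugar transporter gene SLC2A8 (0.80) and the IL-1 receptor kinase gene IRAK2 (0.78), or 0.81, 0.72 and 0.76 over 21 arrays. These r values run across all 24 arrays of the 6 groups, so differences between groups enter them, and they are a ranking without a test.

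TNFAIP3 averaged 9.22 ± 0.37 in silymarin at 4 h and 8.65 ± 0.49 in DMSO (SD, n = 4 each), a difference of 0.57 (SE 0.33, limma unadjusted p = 0.0959). At 8 h it averaged 8.90 ± 0.49 in silymarin (SD, n = 3) and 8.29 ± 0.77 in DMSO (SD, n = 5), and at 24 h 9.11 ± 0.32 and 9.13 ± 0.40. CXCL10 differed by 1.01 (SE 0.68) at 4 h, by 1.02 (SE 0.70) at 8 h and by -0.48 (SE 0.70) at 24 h. Both had the higher mean in silymarin at the 2 earlier times and neither passed the test.

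The platelet chemokine genes PF4V1, PF4 and PPBP lie between the members on the chromosome. Their values spanned 0.29, 0.36 and 0.46 over the 24 arrays, where CXCL6 spanned 2.68 and CXCL8 2.67. Their r with CXCL8 was 0.04, -0.01 and 0.18. Their means of 6.35, 5.87 and 5.46 lie near or under the 25th percentile of gene means, where array signals are dim. Outside the cluster, COX18 (r = 0.69), RCHY1 (0.63), BTC (0.54) and AFM (0.51) had the highest r with CXCL8 among the measured neighbours, or 0.40, 0.45, 0.45 and 0.70 over 21 arrays. The promoters of PF4V1 and PPBP had 0 matches to the 9 shared letters, which were picked from the members, and none to the NF-kB consensus. The promoter of CXCL8 holds the 9 letters and also missed the full consensus string, which does not show that NF-kB cannot bind there. PF4 had no entry among the promoters. Albumin (ALB) and alpha-fetoprotein (AFP), on the side of CXCL8, spanned 0.22 and 0.19.

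Of 33 measured chemokines outside the family, limma called 0 in either direction at any time, and 19, 17 and 19 lay above 0 at 4 h, 8 h and 24 h. CCL20, which attracts lymphocytes and dendritic cells through CCR6, was the member of this list with the highest mean (11.11). It averaged 11.46 ± 0.13 in silymarin at 4 h and 10.80 ± 0.59 in DMSO (SD, n = 4 each), a difference of 0.66 (SE 0.34). At 8 h it differed by 0.86 (SE 0.36, limma unadjusted p = 0.0234, adjusted p = 0.991). CX3CL1 differed by 0.38 (SE 0.20) at 4 h and CXCL16, the ligand of CXCR6, by 0.28 (SE 0.16), while XCL1, a ligand for XCR1 on dendritic cells, differed by -0.07 (SE 0.11) at 4 h and by 0.26 (SE 0.11, limma unadjusted p = 0.0299) at 8 h. The differences were 0.17 (SE 0.08) for CCL28 at 4 h and -0.24 (SE 0.10) for CCL26 at 8 h. At 24 h they were 0.19 (SE 0.08) for CXCL17 and 0.12 (SE 0.06) for CCL22, and none passed. CCL28, CCL26 and CXCL17 had means of 5.64, 4.95 and 6.06, under the 25th percentile of gene means (6.27).

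Of 16 measured receptors and binding proteins, 8, 7 and 11 lay above 0 at 4 h, 8 h and 24 h and 0 were called. The neutrophil receptor gene CXCR1 had a mean of 5.29 and differed by 0.18 (SE 0.10) at 8 h. The smallest unadjusted p-values belonged to CXCR3 (-0.11, SE 0.09) and CXCR5 (-0.11, SE 0.10) at 4 h, the proteoglycan gene HSPG2 (-0.25, SE 0.20) after CXCR1 at 8 h, and CXCR5 (0.23, SE 0.10) and ACKR3 (0.15, SE 0.08) at 24 h. Their means were 9.60 for HSPG2 and 4.47 to 6.87 for the receptors, under the median gene mean.

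Of 24 measured NF-kB subunits, inhibitors and regulators, 20 lay above 0 at 4 h, 15 at 8 h and 9 at 24 h, with medians of 0.08, 0.07 and -0.04, and 0 were called. NFKBIA, which holds NF-kB in the cytoplasm and is itself induced by it, differed by 0.27 (SE 0.15) at 4 h, and the subunit gene RELB by 0.26 (SE 0.15). At 8 h the inhibitor gene NFKBIB differed by 0.23 (SE 0.10) and TNIP3, a partner of A20, by 0.15 (SE 0.07). TNIP3 had a mean of 4.62, under the 25th percentile of gene means (6.27), where array signals are dim. At 24 h the deubiquitinase gene CYLD differed by -0.28 (SE 0.13) and BIRC2, a ubiquitin ligase of the TNF receptor complex, by -0.12 (SE 0.08).

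Of 30 measured cytokines, receptors and adaptors upstream of NF-kB, 19, 12 and 17 lay above 0 at the 3 times and 0 were called. At 4 h the shared IL-6 family receptor gene IL6ST differed by 0.13 (SE 0.06) and the IL-1 receptor gene IL1R1 by 0.24 (SE 0.12). The lymphotoxin receptor gene LTBR differed by -0.14 (SE 0.06) at 8 h and by 0.16 (SE 0.06) at 24 h. TLR4, the receptor for bacterial lipopolysaccharide, differed by -0.12 (SE 0.06) at 8 h, and the peptidoglycan sensor gene NOD2 by 0.18 (SE 0.07) at 24 h. TLR4 and NOD2 had means of 5.15 and 6.02, under the 25th percentile of gene means (6.27). None of these genes passed the adjusted threshold in either direction.

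Of 16 AP-1, C/EBP and related factors, 10, 15 and 12 lay above 0 at 4 h, 8 h and 24 h and 0 were called. EGR1, an immediate early factor, differed by 0.65 (SE 0.24, limma unadjusted p = 0.0116, adjusted p = 0.991) at 8 h and the AP-1 subunit gene FOS by 0.30 (SE 0.12). HIF1A and STAT3 differed by 0.11 and 0.10 (SE 0.08 each) at 4 h, and CEBPG and FOSL2 by 0.16 (SE 0.11) and 0.11 (SE 0.08) at 24 h. Of 12 genes that act on AU-rich mRNAs, 8, 6 and 5 lay above 0 and 0 were called. ZC3H12A, whose RNase product degrades cytokine mRNAs, differed by 0.17 (SE 0.10) at 4 h and 0.16 (SE 0.11) at 8 h, and ZFP36L1, which recruits decay enzymes, by 0.15 (SE 0.10) at 4 h. The others with the smallest p were TIA1 at 8 h (-0.09, SE 0.07) and PARN and HNRNPD at 24 h (-0.07, SE 0.06 each).

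DDIT4 belongs to a list of stress genes read beside the chemokines. Of 8 measured, 1 lay above 0 at 4 h, 5 at 8 h and 8 at 24 h, with medians of -0.11, 0.12 and 0.37, and 0 were called. TRIB3, a pseudokinase induced by ATF4, differed by 0.51 (SE 0.28) at 24 h and the lipoprotein receptor gene VLDLR by 0.36 (SE 0.40), after -0.37 (SE 0.40) at 8 h. The asparagine synthetase gene ASNS differed by -0.24 (SE 0.44) at 4 h, ATF4 itself by -0.08 (SE 0.18), and SESN2 by 0.22 (SE 0.36) at 8 h. DDIT4 differed by -0.34 (SE 0.77), 0.23 (SE 0.80) and 0.43 (SE 0.80) at the 3 times. Without the arrays with DDIT4 above 9, the 4 h differences of CXCL8 and CXCL5 were 0.76 and 0.29 (3 silymarin and 2 DMSO arrays). At 8 h that leaves 1 silymarin array and 2 DMSO arrays, so the values given below for that time rest on a single silymarin array.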

How the data were processed

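Labelled RNA from Huh7.5.1 cells was read on the Affymetrix Human Gene 1.0 ST array (per the labels' protocols). The values deposited by the authors are log2 expression, for which the submitters' processing notes name RMA and oligo. Versions and genome build are not given in the sources used here. RMA normalizes arrays by quantiles, and array medians were 7.04 to 7.18. No further normalization was applied. Of 28869 probe sets, 19302 had 1 gene symbol, 1729 had several and 7838 were not listed, and a gene with several probe sets kept the one with the highest mean, which left 18274 genes. The number of arrays limits the precision.

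One limma 3.58.1 model (R 4.3.3) with a mean per group took in all 24 arrays and had 18 residual and 5.04 prior degrees of freedom. Tests were two-sided, adjusted by Benjamini-Hochberg over all genes at a threshold of 0.05. The scripts were tested on simulated data. Pair correlations used 100000 permutations (scipy 1.17.1). Same-numbered silymarin and DMSO arrays had correlations of -0.14 to 0.43, so numbers were not taken as pairs.

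The chemokines and gene lists were chosen with earlier results of these data known. Named genes are the members, the 3 most correlated genes of each, DDIT4, the 2 smallest p-values per list and comparison, the 4 chemokines with the highest mean and the top marker of each cell type; other genes of the locus and TNFAIP3 and CXCL10 values were added after the data were seen. Alternatives covered scaling, dim genes, probe sets, variance model, weights, samples in the fit, replicate block, thresholds and leaving out arrays.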

Additional observations from a re-analysis of the deposited data

Results flagged for a closer look

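In 24 groups of 4 or 5 arrays tested for an array far from the rest, 1 was found, and chance gives about 1 in 20. It was CXCL3 in silymarin at 4 h, where replicate 3 had 6.1764 and the other 3 arrays 6.51 to 6.58. The gap was 0.837 of the range, above the critical 0.829. Groups of 3 arrays could not be tested this way.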

How the results depend on the processing

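No alternative called any member. The member differences at 4 h, between 24 h and 4 h, and between DMSO at 24 h and 4 h kept their sign in all 38 alternatives. For many of these the sign was fixed in advance. Changes of threshold, variance model, dim genes, probe sets or groups in the fit cannot move a member's difference. Leaving out an array of a group outside the comparison cannot move it either. The count of genes called was 0 except for 1 gene at 24 h after repeated quantile normalization or without 1 of 3 arrays (range 0 to 1 over arrays left out), and 1 gene at 8 h against 4 h in silymarin with array weights. At 24 h the differences were near 0 and their sign was not stable. CXCL3 was -0.0071 after repeated quantile normalization and -0.012 after cyclic loess, and CXCL2 was 0.029 with the replicate number as a replicate block, under which 0 genes were called. Leaving out 1 array at a time gave -0.063 to 0.28 for CXCL1, -0.20 to 0.11 for CXCL2, -0.029 to 0.080 for CXCL3, -0.030 to 0.15 for CXCL5, -0.28 to 0.028 for CXCL6 and -0.077 to 0.34 for CXCL8. At 8 h, without the 3 arrays lowest in CXCL5 and CXCL6, CXCL5 was -0.060, CXCL6 -0.15 and CXCL8 -0.17. Without the arrays with DDIT4 above 9, which leaves 1 silymarin array and 2 DMSO arrays at 8 h, CXCL1 was -0.16, CXCL2 -0.0029, CXCL5 -0.19, CXCL6 -0.15 and CXCL8 -0.26, and CXCL3 stayed above 0 at 0.10. With 1 array in an arm these signs describe single arrays, and that array is assumed to vary like the other groups. These 2 selections were made after seeing the data and by measured values. At 8 h the lowest values with 1 array left out were 0.28 for CXCL2 and 0.24 for CXCL8. Pairs past the correlation threshold were 13 to 15 of 15 under every alternative, and 14 to 15 with 1 array left out. The causes were not tested.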

Other observations

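In the upstream list the cytokine genes IL1B, IL1A, TNF and IL6 were read at low levels, and they were looked up after the list results were seen. Mean log2 values were 5.13 for IL1B, 4.75 for IL1A, 5.92 for TNF and 4.93 for IL6, all under the 25th percentile of gene means (6.27). At 4 h they differed between silymarin and DMSO by 0.09 (SE 0.08), -0.05 (SE 0.07), -0.0006 (SE 0.10) and -0.03 (SE 0.10), and none passed the test (limma adjusted p = 0.99993). The cytokine gene LTB of the same list had a mean of 8.00, above the median gene mean of 7.90. It differed by -0.09 (SE 0.09) at 4 h. Whether any of these cytokines acted on the chemokines was not tested.

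UBD, an inflammation-induced ubiquitin-like modifier, averaged 9.37 ± 0.21 in silymarin at 4 h and 8.72 ± 0.85 in DMSO (SD, n = 4 each). At 24 h it averaged 9.13 ± 0.15 in silymarin (SD, n = 3) and 9.53 ± 0.21 in DMSO (SD, n = 5). The macrophage growth factor CSF1 averaged 9.89 ± 0.17 in silymarin at 4 h and 9.35 ± 0.50 in DMSO (SD, n = 4 each). At 8 h the median of UBD was 8.98 in silymarin (n = 3) and 9.01 in DMSO (n = 5). That of CSF1 was 9.81 and 9.48. The lowest silymarin arrays at 8 h had 8.84 for UBD and 9.41 for CSF1, and the lowest DMSO arrays 7.20 and 8.27. Those minima come from groups of unequal size, and limma called 0 genes at that time.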
